A study of Homo sapiens with 6 samples.

Results

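Dystrophin is a rod-shaped protein under the cell membrane that links actin to a membrane complex, and this complex binds the extracellular matrix through dystroglycan. Utrophin is its close relative outside adult muscle fibres, the dystrobrevins and syntrophins are cytoplasmic partners that bind dystrophin or utrophin and each other, and the sarcoglycans are membrane proteins beside dystroglycan. The genes are known for making several products from internal promoters and for alternative exons, and dystrobrevins and short dystrophins are also made in brain. The 9 genes described here are DTNB and DTNA (dystrobrevins), DMD and UTRN (dystrophin and utrophin), SNTB1 and SNTB2 (syntrophins), DAG1 (dystroglycan), and SGCB and SGCE (sarcoglycans). They were taken by symbol from the study's splicing table, 9 of 30275 genes with a symbol, and held 778 of its 721551 events.

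The study compared SKNBE2 cells treated with DFMO with Control cells, 3 libraries each, by RNA sequencing. SKNBE2 is an established human neuroblastoma cell line with MYCN amplification. DFMO (difluoromethylornithine) blocks ornithine decarboxylase, the first enzyme of polyamine synthesis, and the DFMO cells had 250 µM for 4 days. Both groups are the same line, with no genetic difference in the labels; the labels of the Control group name no agent, and nothing says whether the 3 replicates were separate cultures, so the spread may be technical. The depth, as event reads over all entries (entries can share reads), was 82918379 to 100005273 in DFMO libraries and 77648922 to 103250467 in Control libraries. Of 13 noradrenergic neuroblast markers, 12 had exon events in the table, and per 100000 event reads their reads summed to 216.3 to 218.1 in DFMO libraries, against 188.7 to 192.9 in Control libraries. On the log2 gene measure described with the levels, 7 of these 12 rose with DFMO and 2 fell (limma, adjusted p below 0.05). Their median difference was 0.23, against 0.00017 over all 9232 genes. Of the 9232 genes 44.9% passed, and 22.5% passed and were lower with DFMO. Skeletal muscle markers, 7 of 7 with exon events, summed to 27 to 56 reads in DFMO libraries and 30 to 40 reads in Control libraries, and 3 of them had no read. The 6 Schwann cell markers summed to 100 to 143 reads in DFMO libraries and 107 to 164 in Control libraries, and 3 of them had under 60 reads over the 6 libraries. The 10 mesenchymal markers summed to 4666 to 5942 reads in DFMO libraries and 4561 to 6116 in Control libraries, and 3 of them had under 60 reads. Per 100000 event reads this was 5.63 to 6.13 with DFMO and 5.83 to 5.92 in Control. On the log2 gene measure 3 of the 10 could be measured, and 1, TWIST1, passed, with a rise of 0.43 (limma, adjusted p = 0.0125). The part of the neuroblast marker difference, or of other cells, in any result was not tested.

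Among the tested events of the 9 genes, the exon whose inclusion differed most between DFMO and Control lies in DTNB, β-dystrobrevin, and the paralogous gene DTNA, α-dystrobrevin, has an exon of the same length that is likewise exon 16 of its transcript. Both are shown because they are the exon on which the DTNB result turns and its counterpart, as spliced mRNA with the exon in capitals and 30 bases of the neighbouring exons in lower case (GENCODE v29 transcripts, GRCh38). The DTNB exon is chr2:25419515-25419535 (minus strand, exon 16 of 21 in DTNB-208), and the DTNA exon is chr18:34866111-34866131 (plus strand, exon 16 of 22 in DTNA-206).
DTNB: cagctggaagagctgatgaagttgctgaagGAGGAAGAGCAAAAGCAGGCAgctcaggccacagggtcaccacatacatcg
DTNA: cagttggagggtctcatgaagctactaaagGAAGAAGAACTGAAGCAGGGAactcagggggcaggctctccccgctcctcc
Each exon has 21 bases, starts at the first base of a codon and holds no stop codon in frame, so that its inclusion keeps the reading frame. The exons share 16 of 21 bases, the 30 bases before them 22, the 30 bases after them 18, and the whole stretch 56 of 81. The DTNB exon is in 4 annotated transcripts, each of which codes through it.

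The 21-nt exon of DTNB was included more often in DFMO cells than in Control cells, which mostly skipped it. Its deposited inclusion was 54.0%, 50.68% and 63.96% in the DFMO libraries, against 15.95%, 14.78% and 13.18% in the Control libraries. The lowest DFMO library lay far above the highest Control library, and the mean was 56.2% ± 6.91 with DFMO and 14.6% ± 1.39 in Control (SD, n = 3 each), a difference of 41.6 points. These percents rest on 59, 48 and 64 reads in DFMO libraries and 74, 48 and 63 reads in Control libraries. Over the 3 libraries of a group, the upstream junction had 42 reads, the downstream junction 47 and the skipping junction 82 with DFMO, against 11, 12 and 162 in Control. Both inclusion junctions thus moved in the same direction, and skipping in the opposite one. A percent taken directly from these listed junction reads was lower in both groups, at 34.8% ± 6.55 with DFMO and 6.60% ± 0.68 in Control (SD, n = 3 each). On these listed reads the difference was 28.2 points, again with no overlap; how the authors' quantifier weighs the junctions of so short an exon is stated in no label or header used here. The 9 genes were chosen by their measured DFMO against Control percents and reads in these same libraries, so the values are a description, given without a p value.

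**Figure D1:**
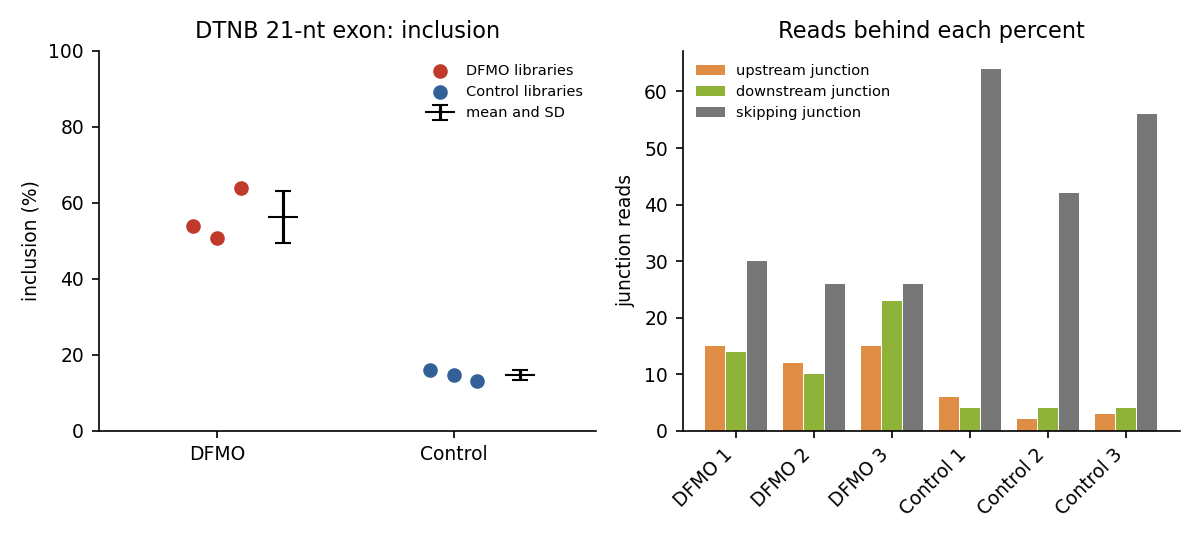
Left, deposited inclusion (%) of the DTNB 21-nt exon in each DFMO and Control library, with mean and SD (n = 3 each). Right, the upstream, downstream and skipping junction reads behind each percent: the DFMO libraries have 26 to 30 skipping reads and the Control libraries 42 to 64.

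DTNA gave too few reads to say how its 21-nt exon was spliced. The exon had 5, 5 and 3 reads in DFMO libraries and 2, 4 and 3 in Control libraries, and 1 of these, in Control replicate 2, supported inclusion. A second DTNA exon, the 9-nt coding exon chr18:34825267-34825275, was skipped in every read of both groups, with 10, 5 and 4 reads with DFMO and 4, 8 and 7 in Control. The DTNA exon with the most reads, a 167-nt exon, had 14, 20 and 22 reads in DFMO libraries and 15, 12 and 18 in Control libraries, and was included at 100% in 5 libraries and at 80.0% in Control replicate 3. None of the 87 DTNA events reached the read and score minimum, which asked of every library 10 reads and a coverage score no lower than LOW.

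The remaining alternative exons of DTNB moved less. Next in size was a 54-nt coding exon nearer the 3′ end (chr2:25383836-25383889, exon 19 of DTNB-208), shown because it is the second exon of the gene whose groups did not overlap; the capitals mark the exon.
DTNB 54-nt exon: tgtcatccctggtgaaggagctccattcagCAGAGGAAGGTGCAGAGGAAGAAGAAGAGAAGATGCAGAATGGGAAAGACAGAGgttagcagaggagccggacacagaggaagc
It was included at 44.61%, 33.62% and 35.58% in DFMO libraries, against 32.72%, 25.31% and 25.86% in Control libraries. Every DFMO library was above every Control library, by less than 1 point between the nearest pair, and the means of 37.9% ± 5.86 and 27.96% ± 4.13 (SD, n = 3 each) differed by 9.97 points, just under the 10 points required of a call. An 86-nt coding exon, whose length is no multiple of 3, had 80.46%, 69.71% and 82.79% with DFMO and 90.89%, 80.04% and 86.71% in Control. Its groups overlapped, and the means differed by -8.23 points. A 58-nt exon whose ends match no annotated exon stood at 82.8% ± 5.80 with DFMO and 85.9% ± 1.83 in Control (SD, n = 3 each), with overlapping groups. The 18-nt acceptor choice at the exon chr2:25427535-25427631 was used for the longer form in 5.16% ± 4.49 of DFMO reads and 8.25% ± 8.79 of Control reads (SD, n = 3 each), again with overlap. A 90-nt coding exon missed the score minimum; it had 89.36%, 69.4% and 91.17% with DFMO and 87.34%, 80.0% and 71.72% in Control. All 20 DTNB introns had a mean retention under 5%, with 1 value of 12.65% in DFMO replicate 1 as the highest. The most covered DTNB exon, of 106 nt, had 166, 152 and 143 reads in DFMO libraries and 152, 107 and 178 in Control libraries and was included at 98% or more in each.

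Across the 9 genes, 194 events had the required score and reads, 233 had no read in any library, and 14 also had a mean percent between 5 and 95 and were tested. They were 12 exons and 1 pair of acceptor sites, from DTNB (6), SGCE (5), SGCB (2) and SNTB2 (1). An event was called when limma's adjusted p was below 0.05 and the means differed by at least 10 points, and this held for 1 of the 14, the DTNB 21-nt exon; over all classes 2.77% of 18209 tested events were called, and among exons 3.45% of 7500, or 2.71% called higher. The shares called were 3.8% of introns, 1.17% of acceptors and 1.93% of donors. Of the 12 exons, 6 were higher and 6 lower with DFMO, and 5 had groups that did not overlap, against 26.2% of all tested exons. The members were chosen with this contrast in view, so nothing is read from these shares. Among the others scored, 70 events had a mean above 95%, and 110 had one below 5%, among them all 64 scored introns.

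**Figure D2:**
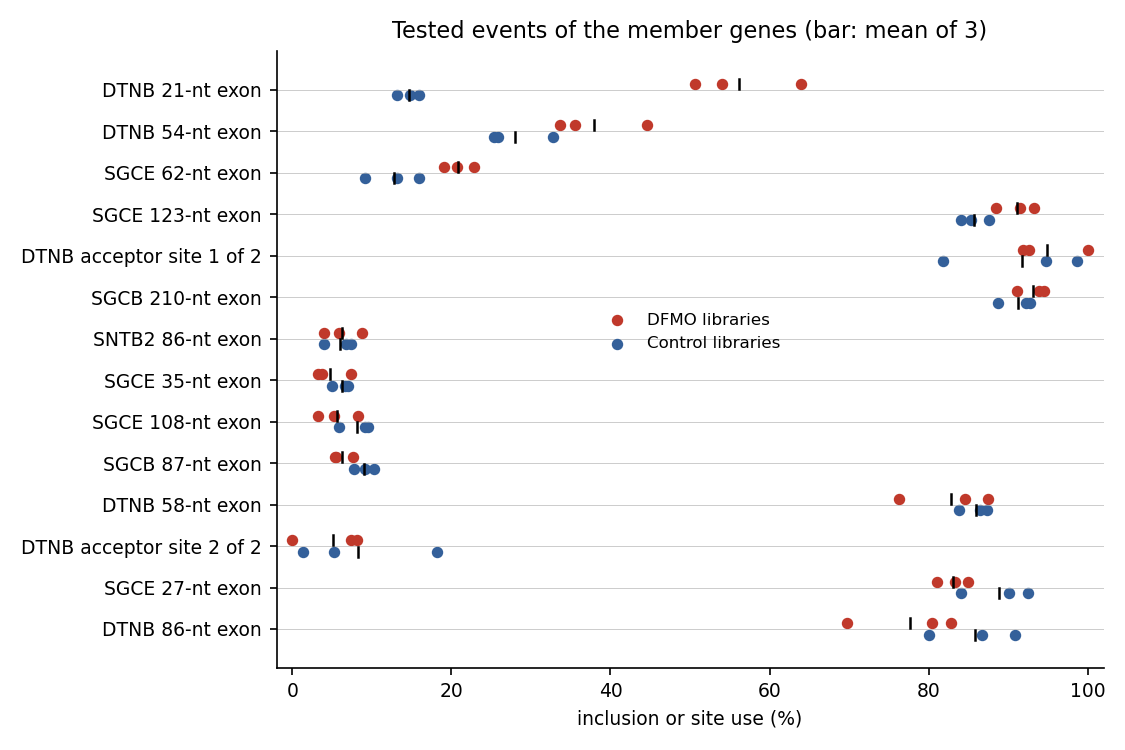
Inclusion or site use (%) of the 14 tested events in each DFMO (red) and Control (blue) library, ordered by the difference of means, with a bar at the mean of 3. The DTNB 21-nt exon separates the groups by the widest gap, and the exons of SNTB2, SGCB and SGCE lie near 5% or above 80%, except the SGCE 62-nt exon.

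UTRN, utrophin, had reads almost only from the 3′ part of the gene, and that part was lower with DFMO. Along UTRN-204, which has 74 exons, 69 were measured. In the 47 measured exons from exon 2 to exon 50, the inclusion reads per junction summed to 1.0, 0.5 and 0.0 in the DFMO libraries and 1.0, 0.0 and 0.0 in the Control libraries. In the 22 measured exons from 51 to 73, they summed to 1038.6, 972.5 and 936.0 in DFMO libraries, against 1432.5, 1283.0 and 1763.8 in Control libraries. The change came at exon 51 (chr6:144678406-144678578), whose upstream junction had 0 reads in every library while its downstream junction had 49, 48 and 34 reads with DFMO and 47, 75 and 92 in Control. An annotated coding transcript, UTRN-202, starts at position 144659844 of chromosome 6, between exon 50 and exon 51 of UTRN-204. A further coding transcript, UTRN-203, starts at position 144583210 in the same interval. The division before exon 51 was chosen after the values were seen. Of near-equal first, middle and last parts fixed beforehand, the last, exons 50 to 73, had the same sums.

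With each library scaled to 100000000 event reads, the 3′ part of UTRN had 47.2, 53.3 and 49.4 scaled reads per junction in DFMO libraries, against 76.6, 75.1 and 77.6 in Control libraries. The groups did not overlap, with means of 50.0 ± 3.09 and 76.5 ± 1.28 (SD, n = 3 each), a ratio of 0.653. In a bulk sample, fewer cells with a transcript and less of it per cell cannot be told apart. The lower level ran along this part: 20 exons, between exon 52 and exon 73, had every DFMO library below every Control library, and 0 of the 69 measured exons had the reverse. Over all scored exon events of the table, 17.9% had every DFMO library below every Control library, and 16.8% had every one above. In UTRN it was 24 of 28 below and 0 above. Neighbouring exon events of a gene share reads, and UTRN was chosen with these reads in view, so these counts are a description only. The most covered exon, exon 62 with 158 nt, had 104, 109 and 88 reads in DFMO libraries and 183, 165 and 202 in Control libraries, and was included at 100% in each. No UTRN event was tested for splicing, since all 70 scored ones lay above 95% (30) or below 5% (40).

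**Figure D3:**
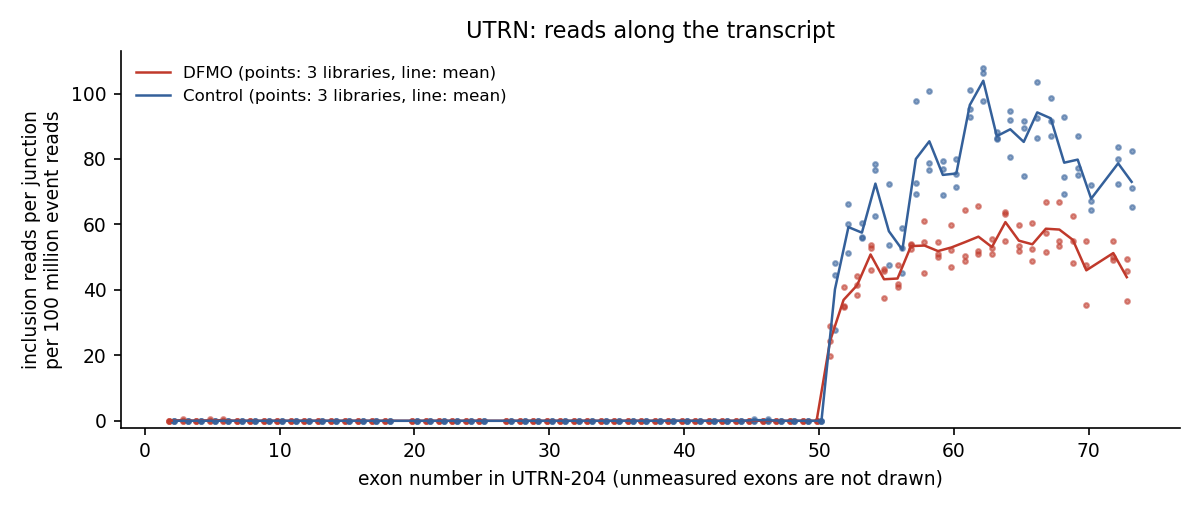
Scaled inclusion reads per junction (per 100000000 event reads) along the exons of UTRN-204 (points, libraries; lines, means of 3; DFMO red, Control blue). Both lines stay at or near 0 up to exon 50, and from exon 52 on the DFMO mean lies below the Control mean.

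DMD, dystrophin, was detected at a low level with reads from both ends of the gene and a stretch without any between them. Along DMD-203, with 79 exons of which 73 were measured, exons 2 to 8 had 3.14, 4.74 and 5.72 scaled reads per junction in DFMO libraries, against 2.61, 2.02 and 1.59 in Control libraries. The DFMO libraries were all above the Control libraries, with means of 4.53 ± 1.301 and 2.07 ± 0.51 (SD, n = 3 each). These rest on few reads: the inclusion reads per junction summed to 22.0, 27.5 and 34.5 with DFMO and to 15.5, 11.0 and 11.5 in Control. From exon 10 to exon 43, the 33 measured exons had 0 inclusion reads in the 6 libraries together, which allows up to 3 reads for counting error alone. Exon 9 (chrX:32697870-32697998) had 7, 3 and 2 reads at its downstream junction in DFMO libraries and 0, 2 and 2 in Control libraries, while exon 10 had none at its upstream junction. For the 35 consecutive introns from intron 10 to intron 44, the table listed the same spliced reads at each intron, 9.03, 3.39 and 2.26 in DFMO libraries and 0.0, 2.26 and 2.26 in Control libraries, and it does not name the junction these reads crossed. Intron 9, which follows exon 9, listed the same spliced reads except for 3.16 in Control replicate 2. Whether these are the reads at the downstream junction of exon 9 was not tested. Exon 44 had 3 reads at its downstream junction in DFMO replicate 2 and no other read. The division at exons 9 and 44 was chosen after the values were seen.

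Downstream of this stretch DMD reads returned, and the annotated internal starts give 3 further parts, a division also chosen after the values were seen. From exon 46 to exon 55 the level was 5.31, 6.83 and 4.57 scaled reads per junction in DFMO libraries and 2.50, 2.65 and 4.76 in Control libraries, with overlap. From exon 56 to exon 62 it was 5.29, 4.70 and 5.01 with DFMO, against 1.68, 2.21 and 2.92 in Control, with no overlap and means of 4.998 ± 0.297 and 2.27 ± 0.62 (SD, n = 3 each). From exon 63 to exon 78, the part shared with the short dystrophin DMD-212, the groups overlapped, at 7.27 ± 0.86 and 6.58 ± 0.50 (SD, n = 3 each). The level was thus highest in this last part in both groups, and the ratio between groups was 1.11 there and 2.20 in exons 56 to 62. For near-equal first, middle and last parts of the measured exons, fixed beforehand, the ratios were 2.16, 1.66 and 1.27. These values rest on few reads: exons 56 to 62 summed to 37.0, 27.3 and 30.2 inclusion reads per junction in DFMO libraries and to 10, 12 and 21.1 in Control libraries.

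Of the 239 DMD events none had the required score, so their percents are listed with their reads only. The 39-nt coding exon chrX:31177932-31177970 near the 3′ end was included at 33.3%, 0.0% and 10.3% in DFMO libraries, with 6, 10 and 16 reads, against 40.0%, 40.0% and 75.0% in Control libraries, with 14, 14 and 7 reads. The groups did not overlap. A 48-nt exon whose ends match no annotated exon (chrX:31648618-31648665) had 16.67%, 48.52% and 27.98% in DFMO libraries, with 8, 12 and 12 reads, and 100%, 72.0% and 75.8% in Control libraries, with 1, 10 and 8 reads. A 32-nt coding exon close to the end, whose length is no multiple of 3, was at 0% in every library, with 11 to 15 reads with DFMO and 8 to 16 in Control. The most covered DMD exon, of 159 nt, had 15, 24 and 22 reads with DFMO and 20, 21 and 21 in Control.

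**Figure D4:**
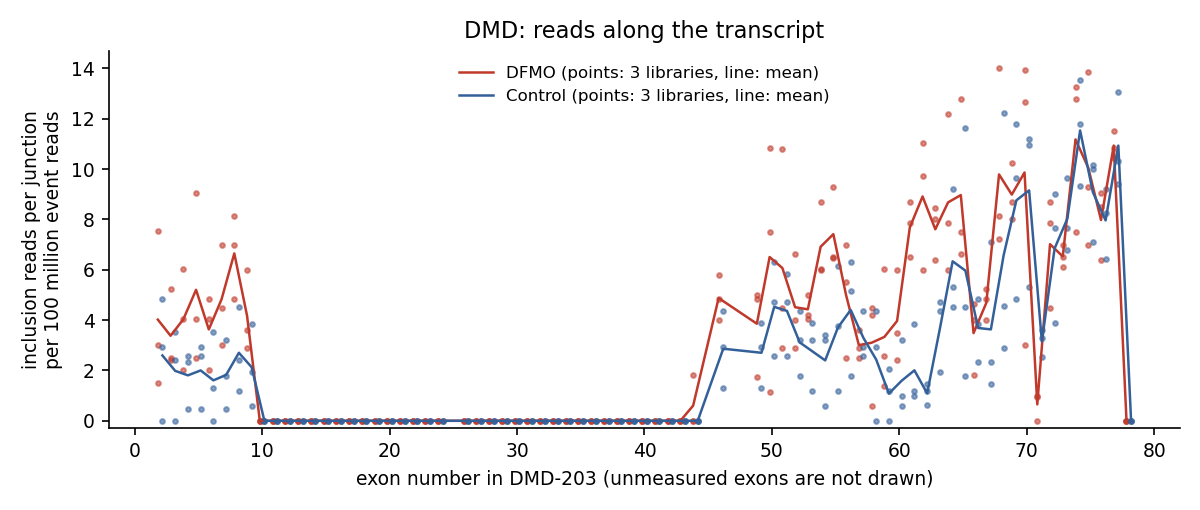
Scaled inclusion reads per junction (per 100000000 event reads) along the exons of DMD-203 (points, libraries; lines, means of 3; DFMO red, Control blue). Reads are present in exons 2 to 9, absent from exon 10 to exon 43 and present again from exon 46; exon 71, the 39-nt exon, dips below its neighbours in both groups, and exon 78, the 32-nt exon, stands at 0.

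Of the syntrophins, adaptor proteins that bind dystrophin and dystrobrevin, SNTB2 was well covered and SNTB1 had fewer than 10 reads in each library. SNTB1 had 0, 8 and 6 exon event reads in DFMO libraries and 3, 4 and 2 in Control libraries. SNTB2 had 681, 599 and 681 in DFMO libraries and 663, 663 and 956 in Control libraries. Its single tested exon, of 86 nt and annotated in a transcript marked for nonsense-mediated decay, was included at 6.17% ± 2.39 with DFMO and 6.02% ± 1.81 in Control (SD, n = 3 each). Its most covered exon, exon 4 with 143 nt, had 128, 97 and 127 reads with DFMO and 139, 126 and 169 in Control, each at 100%.

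DAG1, which encodes both subunits of dystroglycan, had 1 scored exon, of 401 nt, included at 100% in every library with 118, 105 and 111 reads with DFMO and 115, 105 and 160 in Control. Upstream exons that hold no coding sequence varied on few reads. A 162-nt exon was at 55.6%, 50.0% and 44.4% in DFMO libraries (21, 6 and 13 reads), against 7.69%, 64.7% and 18.9% in Control libraries (14, 14 and 22 reads). A 48-nt exon was at 61.3%, 69.2% and 46.7% with DFMO (25, 11 and 11 reads), against 14.3%, 52.4% and 25.0% in Control (16, 16 and 25 reads). In both exons the groups overlapped. Control replicate 2 lay above every DFMO library in the 162-nt exon and among the DFMO libraries in the 48-nt exon.

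SGCE, ε-sarcoglycan, and SGCB, β-sarcoglycan, were the most abundant of the 9 genes, and their alternative exons differed by less than 10 points. The SGCE 62-nt exon, whose length is no multiple of 3, is in 11 annotated transcripts. Of these 1 is coding and holds the exon outside its coding sequence, and the rest are marked for nonsense-mediated decay. The exon was included at 20.64%, 22.82% and 19.04% in DFMO libraries, against 9.18%, 13.14% and 15.98% in Control libraries. No library of either group overlapped the other, and the means differed by 8.07 points. The inclusion reads were mostly from 1 side. Over the 3 libraries of a group, the upstream junction had 112 reads, the downstream 25 and the skipping junction 270 with DFMO, against 78, 13 and 320 in Control. A 123-nt coding exon was included at 91.1% ± 2.39 with DFMO and 85.7% ± 1.76 in Control (SD, n = 3 each), also without overlap. A 27-nt coding exon had 84.94%, 83.31% and 81.08% with DFMO, against 84.13%, 92.53% and 90.06% in Control, so that Control replicate 1 fell among the DFMO libraries. From its listed junction reads, this exon was at 73.3% ± 2.72 with DFMO and 81.8% ± 6.48 in Control (SD, n = 3 each). The 108-nt and 35-nt exons of SGCE were under 10% in every library. In SGCB, an 87-nt exon whose ends match no annotated exon stood at 7.67%, 5.48% and 5.40% with DFMO and at 10.28%, 9.09% and 7.69% in Control; the groups did not overlap but their nearest libraries almost met. The SGCB 210-nt exon was included at 93.2% ± 1.80 and 91.3% ± 2.26 (SD, n = 3 each).

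Levels of the 9 genes were set on 1 scale as the mean inclusion reads per junction over the measured exons of 1 transcript a gene, per 100000000 event reads. SGCE had 286 ± 1.01 with DFMO and 297 ± 8.25 in Control, and SGCB had 247 ± 15.2 and 240 ± 14.5. SNTB2 (49.4 ± 2.24 and 58.7 ± 4.18) and DTNB (51.4 ± 1.70 and 57.1 ± 2.68) came next, and their libraries overlapped each other in both groups. DAG1 followed with 22.2 ± 0.45 and 25.2 ± 1.74, then UTRN with 15.9 ± 0.98 and 24.4 ± 0.41 over all its measured exons, whose Control libraries overlapped those of DAG1. Both means take in exons with few or no reads, so the rank of DAG1 and UTRN depends on the exons averaged. DAG1 exon 5 alone had 59.0, 63.3 and 64.4 with DFMO and 67.7, 67.6 and 77.5 in Control. The 3′ part of UTRN had means of 50.0 and 76.5. DTNA had 6.02 ± 0.72 and 4.26 ± 0.63, DMD 3.18 ± 0.29 and 2.25 ± 0.14, and SNTB1 0.33 ± 0.31 and 0.26 ± 0.15 (SD, n = 3 each throughout). The DFMO libraries lay wholly below the Control libraries for SGCE, SNTB2, DTNB, DAG1 and UTRN, and wholly above them for DTNA and DMD; for SGCB and SNTB1 they overlapped. Nothing is read from how many did so, since the genes were chosen with these reads in view.

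A second measure, the mean over a gene's scored exon events of log2(1 + reads), with each library scaled to 1000000 exon event reads, could be computed for 6 of the 9 genes. On it, 3 of the 6 (DTNB, UTRN and DAG1) had every DFMO library below every Control library and 1 (SGCB) every one above, against 27.9% and 27.7% of 9232 genes, and SNTB2 and SGCE overlapped. UTRN was past limma's adjusted p of 0.05, as were 44.9% of the 9232 genes; 22.5% of the 9232 were past it and lower with DFMO. The genes were chosen with these reads in view, so this is a description and no test of UTRN. UTRN was at 1.75, 1.88 and 1.81 on this log2 scale in DFMO libraries, against 2.23, 2.23 and 2.27 in Control libraries, a difference of -0.43. The other 5 differed by between -0.14 and 0.10, with a median of -0.13 over the 6 genes, against 0.00017 over all genes. In Control, DAG1 (2.30) and UTRN (2.24) lay above SNTB2 (1.95) and DTNB (1.94) on this measure, the reverse of their order on the first scale. No member moved 1.5-fold on this measure, which 1.08% of genes did. The pseudocount of 1 shrinks differences at low levels. UTRN's ratio was 0.682 with a pseudocount of 0.1, and 0.653 from the scaled reads of its 3′ part.

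**Figure D5:**
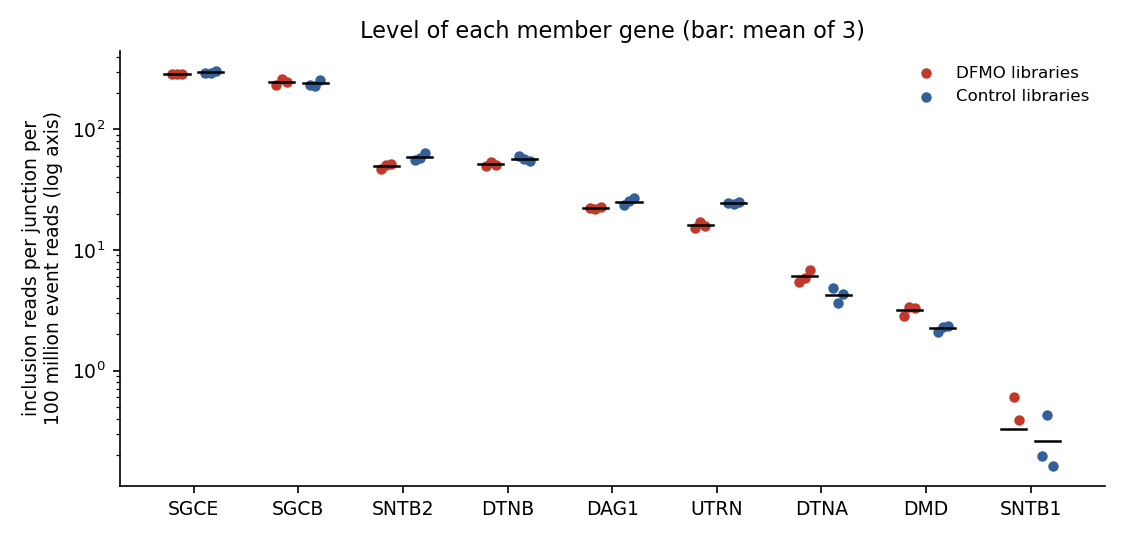
Mean scaled inclusion reads per junction (per 100000000 event reads, log axis) for each gene and library, DFMO red and Control blue, with a bar at the mean of 3. The genes run from SGCE, at 286 with DFMO and 297 in Control, down to SNTB1 below 1; the SNTB1 value of 0 in DFMO replicate 1 cannot be drawn on this axis.

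The wider complex was looked at through 61 further genes: other sarcoglycans, syntrophins and relatives, cytoplasmic partners, matrix ligands and the enzymes that glycosylate dystroglycan. In 19 of them 64 events could be tested, and 3 were called, 1 higher and 2 lower with DFMO. Over all classes 2.77% of 18209 tested events were called, with 3.45% of exons and 3.8% of introns, so nothing is read from this count. A 93-nt exon of ANK2, ankyrin-B, which anchors membrane proteins to the spectrin skeleton (chr4:113372533-113372625), was included at 47.47%, 40.51% and 40.31% with DFMO, against 27.27%, 24.91% and 25.71% in Control, a rise of 16.8 points (limma, adjusted p = 0.00927). An intron of LAMB1, the laminin β1 chain (chr7:108002972-108003110), was retained at 5.71%, 3.03% and 5.26% with DFMO, against 18.36%, 14.7% and 12.01% in Control (limma, adjusted p = 0.0179). In both events the groups did not overlap. Both calls were lost without the variance trend (limma, adjusted p = 0.148 for ANK2 and 0.107 for LAMB1), and the LAMB1 call without the filter on the mean percent (limma, adjusted p = 0.0771). Over 15 alternatives limma's adjusted p ran from 0.000206 to 0.148 for ANK2 and, over the 14 in which it was fitted, from 0.0159 to 0.114 for LAMB1, whose intron dropped out when introns had to have balanced reads. The ANK2 call was lost without DFMO replicate 1 (limma, adjusted p = 0.0524). The LAMB1 call was lost without DFMO replicate 2, Control replicate 1 or Control replicate 2 (limma, adjusted p = 0.0783, 0.114 and 0.0557).

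Of the same 61 genes 30 could be measured by exon event reads: 9 rose and 5 fell past limma's adjusted p of 0.05, none of them 1.5-fold, with a median log2 difference of 0.04. That 14 of 30 passed is near the 44.9% of all genes, and the counts of its groups below are a description. The number that passed was 14 with all libraries and 9 without DFMO replicate 1, DFMO replicate 3, Control replicate 2 or Control replicate 3. Among the enzymes of dystroglycan glycosylation, 5 of 13 measured rose and 3 fell, among the matrix ligands 3 of 9 rose, and among the cytoplasmic partners 1 of 7 rose and 2 fell. LAMB1 rose by 0.54 (limma, adjusted p = 1.45e-05) and ANK2 by 0.33 on the log2 scale (limma, adjusted p = 0.000191). None of the 5 other sarcoglycans and sarcospan could be measured.

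By Euclidean distance over the 6 library percents, the tested exons of other genes most like the DTNB 21-nt exon were in CAMK2G, a calcium/calmodulin-dependent kinase (63 nt, 18.3 points away), ACIN1, an RNA-binding protein of the exon junction (120 nt, 18.4), FNIP2 (90 nt, 19.0), CDH24, a cadherin (114 nt, 21.6), and DDHD1, a phospholipase (50 nt, 22.0). The CAMK2G exon had 41.34%, 54.6% and 56.11% with DFMO, against 9.73%, 19.32% and 19.35% in Control. They were chosen for likeness over the same 6 libraries, so this is a description only.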

How the data were processed

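RNA of SKNBE2 cells, 3 DFMO and 3 Control libraries, was sequenced as stranded mRNA libraries per the labels' protocols. The authors' deposited table gives a percent for each splicing event and library; genome build GRCh38 per the submitters' processing notes, with aligner and quantifier not given in the sources used here. Beside each percent, the deposited quality text (unit: other) holds a coverage score, the listed junction reads and the reads split between inclusion and exclusion; 100% of percents lay within 0.5 points of those reads, which are the total split by the percent and so no independent check. The 9 genes, the list of other genes and the tests were chosen with earlier results of these data known.

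Events entered when no library had fewer than 10 reads or a score under LOW, and the mean percent was 5 to 95. The fit was by limma 3.58.1 (R 4.3.3) on the log2 odds (0.5 added to each read number), with robust empirical Bayes and a variance trend on the expected counting variance, and Benjamini-Hochberg adjustment within each of the 4 event classes. A call needed an adjusted p below 0.05 and 10 points. Gene reads used exon events with a pseudocount of 1 and limma with a mean-variance trend. Exons are numbered along 1 GENCODE v29 transcript a gene. Simulated data were scored on limma's adjusted p below 0.05 alone, without the 10 points of a call. Besides counting noise, the simulated exons had a fixed spread. There, the exon fit over 7500 exons recovered 65 of 100 changes of 2 and 83 of 100 of 3 on the log2 odds scale. It passed 3 unchanged exons. The gene fit over 9232 genes recovered 83 of 100 changes of 0.4 and 99 of 100 of 1, and passed 11 unchanged genes. Same-group pairs of libraries varied by 2.05 to 2.41 times the counting variance. Named were every called event of the 9 genes, all tested DTNB and DTNA events, the event of largest difference and the most covered exon of each gene, parts of DMD and UTRN, the 5 nearest exons, and called events of other genes, of which 1 is not reported here; untested exons of DTNA, DTNB, DMD and DAG1 were chosen after their values were seen. No sequence is given for SNTB1.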

Additional observations from a re-analysis of the deposited data

How the results depend on the processing

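The 9 genes were chosen on these values, so the following describes how their values move and is no support for them. The number of member events called was 1 in each alternative, and the DTNB 21-nt exon differed by 28.2 points from the listed junction reads (an alternative chosen after seeing the data) and 37.7 to 44.3 points when each library was left out. Without the variance trend limma called 0 events of the other complex genes (14 over the whole table), without the filter on the mean percent 1, with balanced introns 1, from listed junction reads 4, and with a library left out 1 to 3. The number of member genes that passed was 1, but 2 with no score filter, 3 with exons of at least 95% inclusion, and 2 with no mean-variance trend. The count of other genes that passed was 9 to 11 with a library left out, against 14. UTRN's log2 difference ran from -0.55 with a pseudocount of 0.1 to -0.34 with no score filter. Same-numbered libraries did not share deviations in the log2 odds of exons (correlations of -0.020, -0.0022 and -0.0070). These deviations hold counting noise, and gene reads were not checked, so a pairing of the replicates is not excluded. With a replicate block, limma called 1 member event and 4 other events, and 1 and 11 genes passed. The cause of these changes was not tested. Depth limits DTNA, DMD and SNTB1, none of whose events reached the score minimum.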
